A study of Mus musculus with 12 samples.

Results

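The mitochondrial ribosomal proteins studied here are 77 genes, 48 named Mrpl and 29 named Mrps, among the 24318 genes of the deposited table. They were chosen by name (Mrpl or Mrps, a number and at most a letter from a to c) and by having at least 10 fragments in each of the 12 libraries. All 77 genes with such a name reached that minimum, so the threshold took out none; the lowest value was 108 fragments, for Mrpl55. All 77 also passed the filter on low counts, which kept 12469 genes for testing. By the place of the protein, 50 belong to the large subunit (Mrps30 and Mrps18a among them, in spite of their names) and 26 to the small subunit. The remaining one, Mrps36, was named as a ribosomal protein but is known as a component of the 2-oxoglutarate dehydrogenase complex.

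The cells were immortalized embryonic fibroblasts of the mouse (MEFs), and their poly(A) RNA was sequenced. Every library came from cells of the genotype MafF-/-::MafG-/-::MafK-/-, which lack the 3 small Maf proteins, the DNA-binding partners of the stress-response factor Nrf2. Mock cells carried only that genotype. T-N2G cells in addition expressed T-N2G, a fusion that tethers Nrf2 to MafG. Each population received, for 12 h, either vehicle or DEM (diethyl maleate, which consumes glutathione) at 100 µM, with 3 libraries for each of the 4 groups. What drives T-N2G and whether either line is 1 clone is not given in the sources used here, and no wild-type cells were analysed here. The labels do not say whether the 3 libraries of a group came from separate cultures, so p-values measure the spread between these libraries, which may be technical.

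Mitochondria have ribosomes of their own, which translate the few proteins that mitochondrial DNA encodes, all of them parts of the respiratory chain or of ATP synthase. The RNAs of these ribosomes come from mitochondrial DNA, whereas every protein is encoded in the nucleus, made in the cytosol and imported. Some of the proteins were kept from the bacterial ancestor, and others have no bacterial counterpart. Fibroblasts keep these genes active at a moderate level, and their promoters are known for binding sites of the ETS family (to which GABPA belongs), of nuclear respiratory factor NRF1 and of YY1.

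The promoter sequences of 4 members that the results turn on show how unlike one another these promoters are. Mrpl39 and Mrpl11 were called lower under DEM in both cell populations, Mrps22 was called lower with pairing by replicate number only, and Mrps6 was the member called higher. Each line gives the 150 bases before the annotated start, read 5′ to 3′ on the gene's strand, from RefSeq on GRCm38.p6; capitals mark matches to an ETS, NRF1 or YY1 motif, and the position of each is in the order Mrpl39 chr16:84735245-84735394 (minus strand), Mrpl11 chr19:4962156-4962305 (plus), Mrps22 chr9:98601680-98601829 (minus) and Mrps6 chr16:92058186-92058335 (plus).
Mrpl39: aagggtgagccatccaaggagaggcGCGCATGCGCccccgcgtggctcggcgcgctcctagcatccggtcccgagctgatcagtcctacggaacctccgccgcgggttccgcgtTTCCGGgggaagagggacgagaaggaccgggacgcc
Mrpl11: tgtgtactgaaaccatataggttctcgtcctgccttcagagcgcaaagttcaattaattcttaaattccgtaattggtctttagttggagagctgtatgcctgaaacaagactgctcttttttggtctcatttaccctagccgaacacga
Mrps22: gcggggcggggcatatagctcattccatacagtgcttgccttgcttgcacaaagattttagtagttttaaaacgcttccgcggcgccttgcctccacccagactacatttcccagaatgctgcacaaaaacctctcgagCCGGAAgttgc
Mrps6: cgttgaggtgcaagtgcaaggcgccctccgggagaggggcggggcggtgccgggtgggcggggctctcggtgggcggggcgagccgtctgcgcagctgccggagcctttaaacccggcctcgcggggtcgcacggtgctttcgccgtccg

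Mrpl39 holds both an NRF1 and an ETS match in this window and Mrps22 an ETS match close to its start. The windows of Mrpl11 and Mrps6 hold none of the 3 motifs. Over all members, RefSeq had a promoter entry (250 bases before to 50 after the start, 300 in all) for 68 of the 77. A gene with several entries counted where any of them held the motif. The ETS motif CCGGAA, searched on both strands, lay in 39 of the 68 (57.4%). It lay in 31.9% of the 9479 tested genes with an entry and in 16.7% of all 27025 genes with an entry. The NRF1 motif (GCGC, A, any base, GCGC) lay in 13 members (19.1%), against 11.8% of tested genes and 5.19% of all genes with an entry. The YY1 motif AAGATGGC lay in 12 members (17.6%), against 5.42% and 3.19%. At least 1 of these 3 was found in 52 members (76.5%), against 42.3% of tested genes. The core of the antioxidant response element, TGACNNNGC, which Nrf2 and small Maf proteins bind, lay in 13 members (19.1%), close to the 17.1% of tested genes. The TATA box TATAAA was found in 5 members (7.35%) and in 8.25% of tested genes, and the GC box GGGCGG in 34 members (50%) and in 70.4% of tested genes. These are matches of letters, with no measurement of binding.

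The libraries held 18863560 to 23095692 fragments, and Nfe2l2 (the gene of Nrf2) and Mafg stood higher in every T-N2G library than in any mock library. Nfe2l2 stood at 47.4 to 66.7 CPM in the mock libraries and at 454.2 to 701.2 CPM in the T-N2G libraries (CPM, counts scaled to library size). Mafg stood at 0.472 to 0.932 CPM in mock and at 95.7 to 160.9 CPM in T-N2G libraries; the deposited values do not tell fusion RNA from RNA of the genomic loci. Of 10 fibroblast markers 9 passed the filter on low counts, while Fap had no more than 0.0824 FPKM (fragments relative to transcript length and sequencing depth) on average in any group. The 10 summed to 3309 to 4638 FPKM, while the 4 lists of epithelial, endothelial, blood and muscle markers each summed to at most 17.6 FPKM, and 1 blood marker was at 0 in all libraries. The library codes fall into 2 series, replicates 1 and 2 in one and replicate 3 in the other, and each series holds all 4 groups.

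Per length, the members were expressed over a 25.4-fold range. Mean FPKM over the 12 libraries had a median of 33.4 and lay above 100 for 6 members, from 10 to 100 for 67 and below 10 for 4. The highest were Mrpl42 (149.5 FPKM, libraries 132.9 to 172.1), Mrpl54 (147.4, 128.5 to 165.4) and Mrpl52 (145.0, 114.0 to 186.0), 3 proteins of the large subunit that bacterial ribosomes lack, whose ranges overlap. Mrps21, a small-subunit protein with a bacterial homologue, followed with 130.3 FPKM (104.4 to 147.5), overlapping all of them. At the low end stood Mrps14 (8.22 FPKM, 5.83 to 10.5), Mrpl17 (8.09, 7.02 to 9.24), Mrpl19 (7.90, 6.25 to 10.4) and Mrpl57 (5.87, 5.08 to 6.96); among these only Mrpl57 and Mrpl17 did not overlap. Mrpl42 and Mrps21 are near-identical to a transcript of another annotated gene (at least 95% identity over at least 50% of the transcript), as are Mrpl22, Mrpl23, Mrpl27, Mrpl53 and Mrps10. The match is a processed pseudogene for all but Mrpl53, whose match, Gm42688, is annotated as a nonsense-mediated decay transcript. Where the matches lie in the genome was not checked. The levels of these members may depend on how shared reads were assigned.

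**Figure D1:**
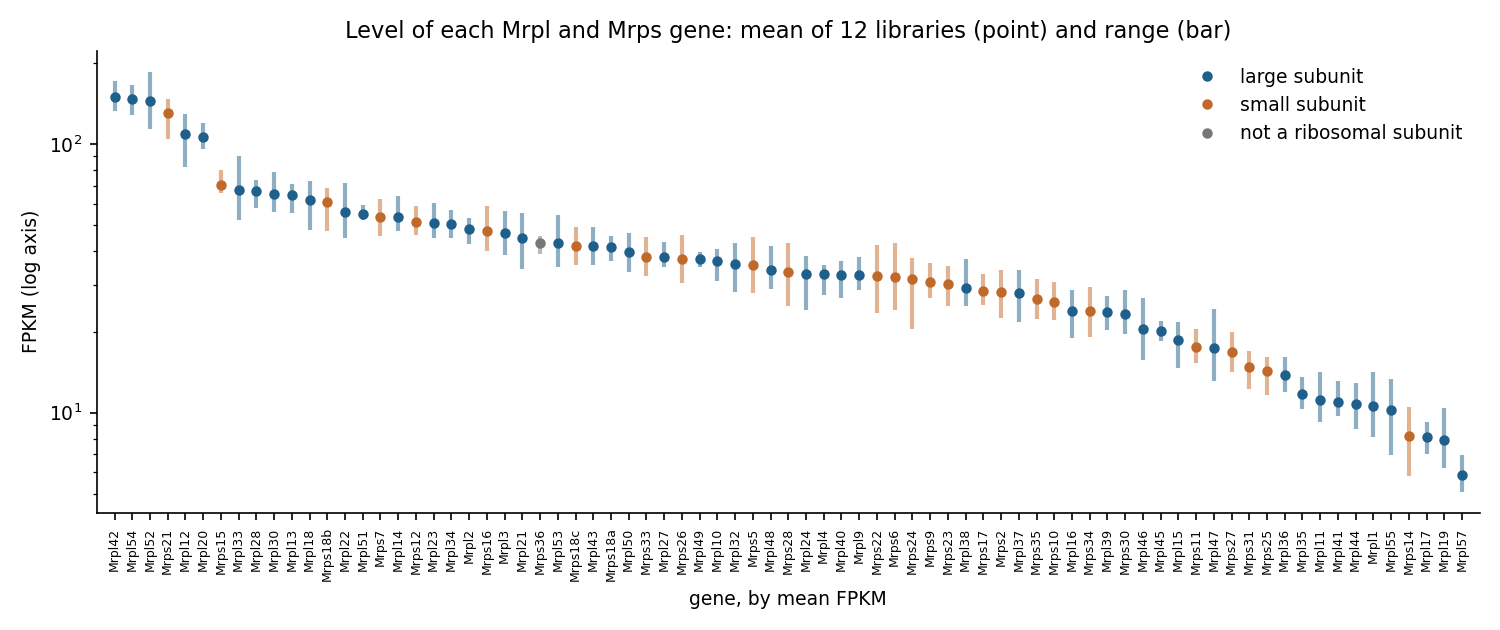
Mean FPKM (log axis) of each of the 77 genes over 12 libraries, with the lowest and highest library as a bar, ordered by the mean and coloured by subunit. The levels run from 149.5 FPKM for Mrpl42 to 5.87 FPKM for Mrpl57, both of the large subunit. Small-subunit genes lie between 130.3 and 8.22 FPKM.

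Bars in the plot of levels are short beside the distances between genes: the highest library was a median of 1.40 times the lowest, and at most 1.93 times. The large-subunit genes had a median of 36.3 FPKM and the small-subunit genes of 31.8. Summed over genes, large-subunit FPKM was 2.17 to 2.35 times small-subunit FPKM in the 12 libraries. In mock vehicle libraries that ratio was 2.27 ± 0.0933 (SD, n = 3), in mock DEM 2.23 ± 0.0642; T-N2G cells had 2.28 ± 0.0401 with vehicle and 2.24 ± 0.0453 with DEM, so the groups overlapped.

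As a share of all fragments, the 77 genes made up 0.289, 0.266 and 0.288% in the mock vehicle libraries 1 to 3 and 0.259, 0.251 and 0.262% in the mock DEM libraries. They made up 0.275, 0.264 and 0.277% in T-N2G vehicle and 0.253, 0.244 and 0.248% in T-N2G DEM. In each population every DEM library lay below every vehicle library, while mock and T-N2G vehicle libraries overlapped. As a share of summed FPKM, mock and T-N2G libraries did not overlap, with no test. That share was 0.628 to 0.645% in mock and 0.620 to 0.626% in T-N2G libraries with vehicle. Under DEM it was 0.598 to 0.612% in mock and 0.570 to 0.584% in T-N2G libraries. In bulk RNA, fewer cells of a kind and less RNA per cell cannot be told apart.

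**Figure D2:**
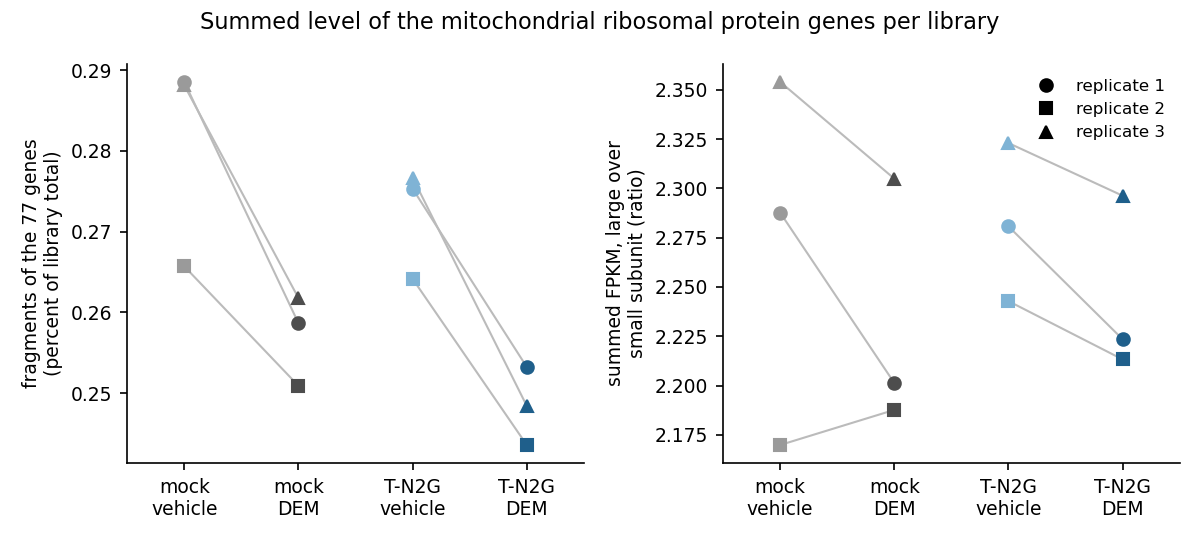
Left, fragments of the 77 genes as percent of the library total; right, the ratio of summed large-subunit to small-subunit FPKM; each point is 1 library, and lines join libraries of 1 population with the same replicate number. The share lies between 0.244 and 0.262% under DEM and between 0.264 and 0.289% with vehicle, and the ratio between 2.17 and 2.35 in all groups.

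The first comparison asked how T-N2G changed these genes when no stressor was given. No member was called higher or lower in T-N2G over mock cells with vehicle (call, Benjamini-Hochberg adjusted p under 0.05 in edgeR's quasi-likelihood test over 12469 genes), where 0.313% of all tested genes were called. None was called either with the replicate number as a block, with which 6.30% of all tested genes were called. DESeq2 and limma on log2 FPKM called none either. The smallest adjusted p among members was 0.695. Without the block 2 members had an unadjusted p under 0.05, against 800 of the 12469 tested genes. With it 9 members did, against 2594 of all tested genes. The median log2 fold change was -0.03 (all tested genes 0.00), with 54 of 77 below 0, against 50.6% of all tested genes. The widest differences were Mrpl57 (log2 fold change -0.23, SE 0.097) and Mrps24 (-0.20, SE 0.11) on the low side, and Mrpl44 (0.18, SE 0.083) and Mrps33 (0.13, SE 0.080) on the high side. The other member with an unadjusted p under 0.05 without the block, Mrpl10 (-0.16, SE 0.065), was chosen after its values were seen. The 95% intervals had a median half-width of 0.21 on the log2 scale, and none of them reached beyond -0.51 or 0.38.

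Under DEM, the calls in T-N2G over mock cells depended on the block. Without it no member was called by edgeR (background 3.71%), DESeq2 or limma, and the smallest adjusted p was 0.165. The unadjusted p was under 0.05 for 6 members, against 1861 of the 12469 tested genes (with the block 17 members and 4003 genes). With the block 2 members were called higher (Mrpl14 and Mrps33; background 10.3%) and 3 lower (Mrpl17, Mrps7 and Mrps24; background 9.32%), both shares under that of all genes. The median log2 fold change was -0.03 and the 95% intervals lay within -0.61 and 0.47.

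Mrpl14, a large-subunit protein with a bacterial homologue, had the widest positive difference. It stood at 18.9, 20.9 and 18.6 CPM in the mock DEM libraries and at 20.8, 25.2 and 24.6 CPM in the T-N2G DEM libraries. One T-N2G library lay within the mock range (log2 fold change 0.27, SE 0.093, adjusted p = 0.165, with the block 0.0140). Mrps33, a small-subunit protein without a bacterial counterpart, stood at 31.0, 30.8 and 32.1 CPM in mock and at 35.03, 34.1 and 37.8 CPM in T-N2G. Its groups did not overlap (log2 fold change 0.19, SE 0.079, adjusted p = 0.281, with the block 0.0316).

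On the low side, Mrps7, which binds the small-subunit RNA, stood at 62.0, 61.3 and 62.4 CPM in mock DEM and at 59.5, 51.5 and 52.6 CPM in T-N2G DEM (log2 fold change -0.18, SE 0.071, adjusted p = 0.227, with the block 0.0115). Mrpl17 stood at 59.6, 52.7 and 60.9 CPM in mock and at 51.9, 46.4 and 51.1 CPM in T-N2G (-0.21, SE 0.088, adjusted p = 0.266, with the block 0.00897). Mrps24 stood at 26.3, 24.8 and 24.0 CPM in mock and at 23.8, 21.7 and 16.6 CPM in T-N2G (-0.27, SE 0.11, adjusted p = 0.250, with the block 0.0229). In all 3 the groups did not overlap, as in 7 members that were lower in this comparison against 9.35% of all tested genes.

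DEM lowered part of the mitochondrial ribosomal protein genes in both populations, by modest amounts. In mock cells 9 members were called lower (Mrps28, Mrpl39, Mrps34, Mrpl11, Mrps35, Mrpl19, Mrpl53, Mrpl33 and Mrpl47), against 6.18% of all tested genes, and 1 was called higher, Mrps6 (background 7.76%). With the replicate block 37 members were called lower (background 21.9%) and 2 higher (Mrps6 and Mrps25, background 20.9%). The median log2 fold change was -0.15, or 10.1% lower, against -0.01 for all tested genes, and 64 of the 77 lay below 0, against 52.2% of all tested genes. In 27 members all 3 DEM libraries lay below all 3 vehicle libraries, against 16.3% of all tested genes, and in 2 above them (background 17.2%). Leaving out 1 library at a time, edgeR called 1 to 10 members lower: 1 without mock DEM replicate 2, 2 without mock vehicle replicate 1, 3 without mock DEM replicate 3, 4 without mock vehicle replicate 3 and 6 without mock DEM replicate 1. With the block the range was 32 to 39.

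In T-N2G cells 11 members were called lower under DEM, against 7.55% of all tested genes: Mrps34, Mrps28, Mrpl11, Mrpl55, Mrpl30, Mrpl47, Mrpl44, Mrpl39, Mrpl16, Mrpl19 and Mrps35. Mrps6 was the only one called higher without the block (background 10.1%). With the block 38 were called lower (background 22.2%) and 4 higher (Mrps6, Mrps25, Mrpl14 and Mrps33, background 22.8%). The median was -0.15, against 0.00 for all tested genes, and 65 of 77 lay below 0, against 50.8% of all tested genes. On the low side 28 had no overlap (background 15.6%). Leaving out 1 library at a time, 6 to 13 members were called lower, with 6 where T-N2G vehicle replicate 1 or 3 was left out and 7 where T-N2G DEM replicate 2 or 3 was; with the block the range was 29 to 39. Of the members called, Mrps35, Mrpl33, Mrpl16 and Mrpl30 were named after their values were seen.

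Mrps28 and Mrps34 had the smallest adjusted p under DEM of the small-subunit genes in both populations without the block. With it Mrps6, which rose, came before Mrps34 (adjusted p = 0.000205 in mock and 8.84e-05 in T-N2G). In mock cells Mrps2, named after its values were seen, did too (0.000481). Mrps28, a homologue of a bacterial small-subunit protein, stood at 21.0, 21.1 and 22.2 CPM in mock vehicle and at 14.8, 14.1 and 16.9 CPM in mock DEM libraries. It stood at 18.9, 17.5 and 20.2 CPM in T-N2G vehicle and at 13.0, 13.4 and 15.1 CPM in T-N2G DEM libraries. All DEM libraries lay below all vehicle libraries of their population, by 28.9% in mock (log2 fold change -0.49, SE 0.093, adjusted p = 0.00661) and 26.6% in T-N2G (-0.45, SE 0.095, adjusted p = 0.00807). Both calls were kept whichever of the 12 libraries was left out (highest adjusted p 0.0356 in mock and 0.0358 in T-N2G). With the block, on all libraries, adjusted p was 2.44e-05 in mock and 7.17e-05 in T-N2G.

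Mrps34, a protein of the small subunit that bacterial ribosomes lack, stood at 20.04, 18.8 and 18.1 CPM in mock vehicle and at 14.7, 14.6 and 15.6 CPM in mock DEM. In T-N2G cells it stood at 20.5, 18.2 and 18.1 CPM with vehicle and at 14.9, 13.9 and 13.3 CPM with DEM. The groups did not overlap in either population (mock -0.34, SE 0.081, adjusted p = 0.0185; T-N2G -0.43, SE 0.082, adjusted p = 0.00479). The mock call was lost without mock vehicle replicate 1 or mock DEM replicate 1 or 2 (highest adjusted p 0.0691), and the T-N2G call was kept in all 12 such fits. Those fits had no block. With it, on all libraries, Mrps34 had adjusted p = 0.000968 in mock and 0.000126 in T-N2G.

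Mrps35, another small-subunit protein without a bacterial counterpart, stood at 27.2, 26.2 and 24.4 CPM in mock vehicle and at 22.6, 19.6 and 21.3 CPM in mock DEM. In T-N2G cells it stood at 24.4, 24.2 and 26.2 CPM with vehicle and at 21.4, 20.8 and 19.4 CPM with DEM. Again no DEM library reached the vehicle range (mock -0.30, adjusted p = 0.0273; T-N2G -0.28, adjusted p = 0.0288). Either call was lost in 4 of the 12 fits without 1 library: in mock without vehicle replicate 1 or 2 or DEM replicate 2 or 3 (highest adjusted p 0.108), in T-N2G without vehicle replicate 1 or 3 or DEM replicate 2 or 3 (0.0908). Those fits had no block. With it, on all libraries, Mrps35 had adjusted p = 0.00226 in mock and 0.00356 in T-N2G.

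In the large subunit, Mrpl11 sits at the base of the stalk where translation factors bind. It stood at 37.1, 29.7 and 33.3 CPM in mock vehicle and at 26.5, 27.1 and 25.1 CPM in mock DEM. In T-N2G cells it stood at 34.1, 32.5 and 38.2 CPM with vehicle and at 26.8, 26.4 and 26.3 CPM with DEM. The DEM libraries were close to one another and below every vehicle library (mock -0.35, SE 0.087, adjusted p = 0.0235; T-N2G -0.40, SE 0.088, adjusted p = 0.00961). The T-N2G call was kept whichever library was left out. The mock call was lost without mock vehicle replicate 1 or 3 or any one mock DEM library (highest adjusted p 0.0887). Those fits had no block. With it, on all libraries, Mrpl11 had adjusted p = 0.00129 in mock and 0.000355 in T-N2G.

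Mrpl39, which bacterial ribosomes lack, stood at 42.6, 41.3 and 45.1 CPM in mock vehicle and at 35.2, 33.7 and 36.3 CPM in mock DEM. In T-N2G cells it stood at 43.2, 41.4 and 44.2 CPM with vehicle and at 36.9, 34.7 and 38.0 CPM with DEM. Its change was smaller than that of Mrpl11 but its libraries were tighter (mock -0.29, SE 0.061, adjusted p = 0.0106; T-N2G -0.23, SE 0.062, adjusted p = 0.0226). The mock call was lost without mock DEM replicate 2 (adjusted p 0.0561), the T-N2G call without T-N2G vehicle replicate 1 or 3 or T-N2G DEM replicate 1 or 2 (highest 0.0818). Those fits had no block. With it, on all libraries, Mrpl39 had adjusted p = 0.000119 in mock and 0.000757 in T-N2G.

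Mrpl19, a homologue of a bacterial protein, stood at 50.4, 39.9 and 43.6 CPM in mock vehicle and at 38.3, 32.4 and 33.9 CPM in mock DEM. In T-N2G cells it stood at 45.1, 37.5 and 42.6 CPM with vehicle and at 34.7, 30.4 and 30.8 CPM with DEM. Replicate 1 was the highest library in every group, and within each replicate number DEM was lower (mock -0.36, SE 0.10, adjusted p = 0.0402; T-N2G -0.39, SE 0.10, adjusted p = 0.0247). The mock call was lost without mock vehicle replicate 1 or 3, mock DEM replicate 2 or 3 or T-N2G vehicle replicate 3 (highest adjusted p 0.141), the T-N2G call without T-N2G vehicle replicate 1 or 3 or T-N2G DEM replicate 2 or 3 (0.0912). Those fits had no block. With it, on all libraries, Mrpl19 had adjusted p = 4.67e-05 in mock and 1.95e-05 in T-N2G.

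Mrpl47 lies near the exit of the peptide tunnel and had the widest change of the members called in both populations of the large subunit. It stood at 13.5, 13.2 and 13.9 CPM in mock vehicle and at 10.0, 9.39 and 10.96 CPM in mock DEM. In T-N2G cells it stood at 12.6, 11.6 and 16.4 CPM with vehicle and at 8.87, 9.74 and 10.0 CPM with DEM. The groups did not overlap (mock -0.42, SE 0.12, adjusted p = 0.0451; T-N2G -0.50, SE 0.13, adjusted p = 0.0184), and replicate 3 of T-N2G vehicle stood above the others. The mock call was lost without any one of 10 libraries, all except T-N2G vehicle replicates 2 and 3 (highest adjusted p 0.147), and the T-N2G call without T-N2G vehicle replicate 3 or T-N2G DEM replicate 1 (0.0665). Those fits had no block. With it, on all libraries, Mrpl47 had adjusted p = 0.00153 in mock and 0.00042 in T-N2G.

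Mrpl55, the member with the fewest fragments, had the widest fall of all in T-N2G cells. It stood at 8.11, 7.87 and 9.07 CPM with vehicle and at 5.60, 5.06 and 6.16 CPM with DEM, 32.96% lower (log2 fold change -0.58, SE 0.13, adjusted p = 0.0111, at most 0.0433 without any 1 library). In mock cells it stood at 8.997, 8.07 and 9.95 CPM with vehicle and at 5.99, 7.12 and 7.55 CPM with DEM (-0.39, SE 0.13, adjusted p = 0.0645, with the block 0.00425). The difference of its 2 DEM effects was -0.19 (SE 0.18, adjusted p = 1).

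Mrpl21 and Mrps22 show members whose call rested on the pairing. Mrpl21 stood at 41.8, 35.9 and 43.2 CPM in mock vehicle and at 30.8, 27.1 and 34.8 CPM in mock DEM (-0.38, SE 0.12, adjusted p = 0.0587, with the block 2.46e-05). Replicate 2 was lowest and replicate 3 highest in both groups. Mrps22, a small-subunit protein that bacterial ribosomes lack, stood at 38.4, 31.3 and 42.9 CPM in T-N2G vehicle and at 30.9, 24.1 and 33.2 CPM in T-N2G DEM. Its groups overlapped, although each DEM library lay below the vehicle library of the same number (-0.35, SE 0.14, adjusted p = 0.0976, with the block 0.000236).

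Mrps6 went the other way. It stood at 15.8, 15.7 and 14.3 CPM in mock vehicle and at 21.9, 24.8 and 16.6 CPM in mock DEM, and at 16.1, 17.0 and 13.9 CPM in T-N2G vehicle and 23.3, 23.2 and 19.4 CPM in T-N2G DEM. All DEM libraries lay above the vehicle libraries of their population, replicate 3 by least (mock 0.46, SE 0.14, adjusted p = 0.0455; T-N2G 0.49, SE 0.14, adjusted p = 0.0303). The mock call held only without mock DEM replicate 3 or T-N2G vehicle replicate 2 or T-N2G DEM replicate 2 or 3 (highest adjusted p otherwise 0.148), and the T-N2G call was lost without T-N2G vehicle replicate 1 or 3 or T-N2G DEM replicate 1 or 2 (0.107); with the block adjusted p was 0.000205 and 8.84e-05. Mrps6 is uncertain. It was the only member with counts that were not whole numbers, in all 12 libraries. It shares exons on the same strand with Gm49711 and with Slc5a3, the myo-inositol transporter gene. The start of Slc5a3 lies 14 bases away, and the counts of Slc5a3 were not whole either. Slc5a3 had a log2 fold change under DEM of 0.39 in mock (adjusted p = 0.136, with the block 4.82e-05) and of 0.13 in T-N2G (adjusted p = 0.629, with the block 0.0704).

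**Figure D3:**
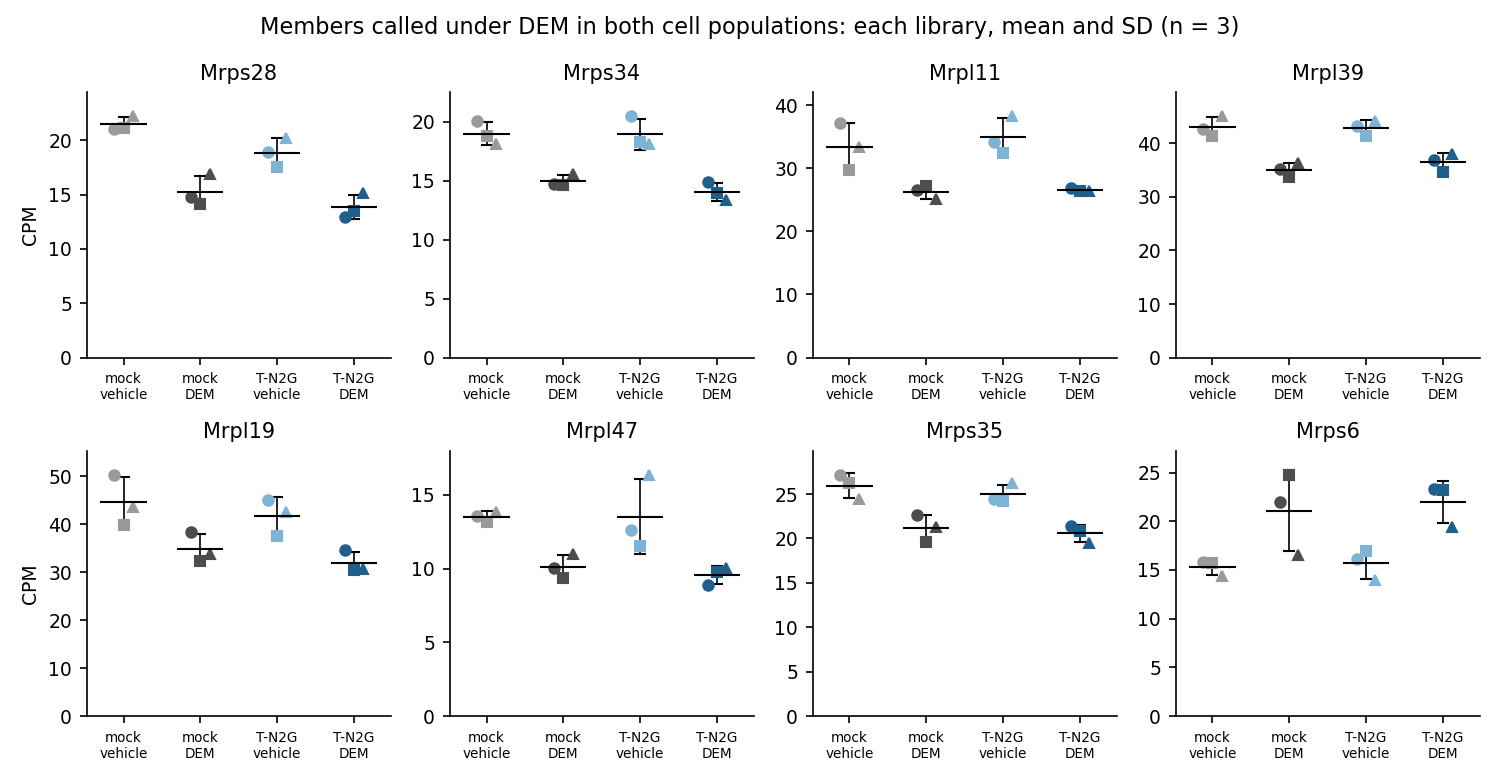
CPM in each of the 12 libraries for the 8 members called under DEM in both populations; circles, squares and triangles are replicates 1, 2 and 3, horizontal lines the mean and error bars the SD (n = 3). In 7 genes the DEM libraries lie below the vehicle libraries of the same population and in Mrps6 above them.

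Mrps25, a small-subunit protein without a bacterial counterpart, was the other gene called higher with the block in both populations. It stood at 89.6, 83.8 and 76.5 CPM in mock vehicle and at 95.7, 92.2 and 89.0 CPM in mock DEM, which overlap. It stood at 79.2, 80.3 and 68.6 CPM in T-N2G vehicle and at 88.9, 90.1 and 84.5 CPM in T-N2G DEM, which do not (mock 0.15, adjusted p = 0.213, with the block 0.0121; T-N2G 0.21, adjusted p = 0.0807, with the block 0.00124).

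Members that lie over exons of another gene on the opposite strand are Mrpl19 (Gcfc2), Mrpl21 (Ighmbp2), Mrpl44 (Wdfy1), Mrpl47 (Actl6a and Ndufb5), Mrps7 (Gga3 and Mif4gd), Mrps25 (Nr2c2), Mrps30 (B430218F22Rik), Mrpl27 (Eme1) and 8 that are not described one by one here, 16 in all. The library kit marks strand, but the strand setting of the counting is not given in the sources used here, so reads of the partner gene may be in these values.

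The 2 DEM comparisons share no library, and the calls in them overlapped among members and among all genes. Of 13 members called lower in either, 7 were called lower in both (Mrpl11, Mrpl19, Mrpl39, Mrpl47, Mrps28, Mrps34 and Mrps35), which is 7 of the 9 in mock and 7 of the 11 in T-N2G (77.8% and 63.6%). Among all tested genes 4.30% were called lower in both, which is 69.6% of those called lower in mock and 57.0% of those in T-N2G. Mrps6 was called higher in both (background 5.58%). With the block 32 of 43 were called lower in both (background 15.8%), which is 86.5% of those in mock and 84.2% of those in T-N2G against 72.2% and 71.4% among all tested genes, and Mrps6 and Mrps25 higher (background 15.5%). In 60 members both log2 fold changes were below 0 and in 8 both were above 0. As a description, the 2 sets of log2 fold changes had Pearson's r of 0.867 and Spearman's rho of 0.854 across the 77 genes, which are not independent replicates, against r of 0.642 across all tested genes. Libraries of the same replicate number deviate together, so the sets are not fully independent either.

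**Figure D4:**
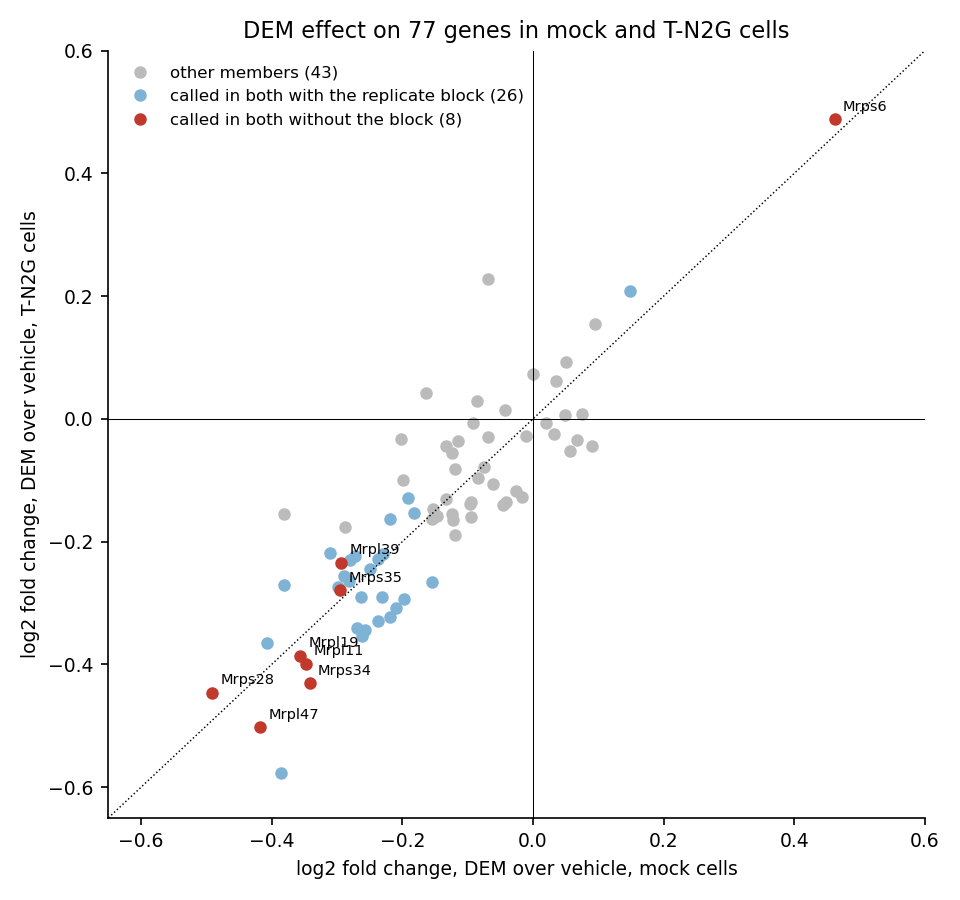
Log2 fold change of DEM over vehicle in mock cells (x) and in T-N2G cells (y) for each of the 77 genes; the dotted line marks equal effects, and colours mark genes called in both populations without the replicate block (8) or only with it (26). Most points lie below 0 on both axes near the line, and Mrps6 lies apart at the upper right.

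No member had a DEM effect that differed between T-N2G and mock cells by the test of the difference itself, without or with the block (background 0.433% and 2.80%). The unadjusted p was under 0.05 for 1 member without it and for 3 with it. Among the 12469 tested genes it was for 455 and 1534. The widest difference was that of Mrpl14, 0.30 (95% interval 0.01 to 0.58, SE 0.13, adjusted p = 1, with the block 0.193). With vehicle and DEM it stood at 20.4 ± 1.38 and 19.5 ± 1.23 CPM in mock and at 20.1 ± 1.15 and 23.5 ± 2.42 CPM in T-N2G cells (SD, n = 3). Next came Mrpl53 (0.23, SE 0.16), called lower under DEM in mock but not in T-N2G cells; it stood at 20.9 ± 1.76 CPM with vehicle and 16.0 ± 1.54 CPM with DEM in mock, and at 18.2 ± 1.88 and 16.3 ± 1.72 CPM in T-N2G cells. The abundant Mrps21 (0.21, SE 0.15) was called lower in mock with the block only, at 27.1 ± 2.91 CPM with vehicle and 24.2 ± 2.77 CPM with DEM. The median half-width of the 95% intervals was 0.30 on the log2 scale without the block.

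**Figure D5:**
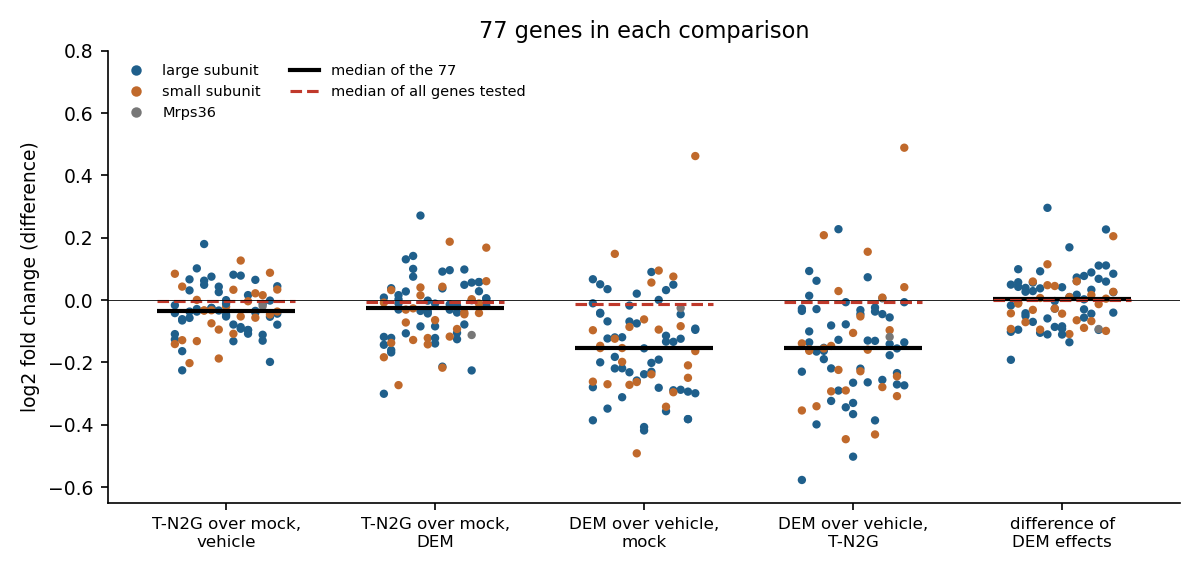
Log2 fold change of each of the 77 genes in the 4 group comparisons, and the difference of the 2 DEM effects, coloured by subunit; thick lines are the medians of the 77 and dashed lines those of all tested genes. The medians are -0.03 and -0.03 for T-N2G over mock and -0.15 and -0.15 for DEM over vehicle, where the 2 lines stand apart.

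Members called lower under DEM were found in both subunits. The 50 large-subunit genes had a median log2 fold change of -0.14 in mock and -0.14 in T-N2G, with 6 and 8 called lower (25 and 24 with the block) and none called higher without it. The 26 small-subunit genes had medians of -0.15 and -0.16, with 3 and 3 called lower (12 and 14 with the block). The 9 small-subunit proteins without a bacterial homologue had the lowest medians, -0.24 and -0.23, with 2 called lower in each population (6 and 6 with the block). The 16 small-subunit homologues of bacterial proteins stood at -0.14 and -0.15, the 30 large-subunit homologues at -0.16 and -0.14 and the 19 other large-subunit proteins at -0.15 and -0.14. Differences between these classes were not tested. For comparison, the background of lower calls was 6.18% (mock) and 7.55% (T-N2G). Once the block was added it was 21.9% (mock) and 22.2% (T-N2G).

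Medians below 0 were also seen in 2 related groups of genes. The 81 tested cytosolic ribosomal proteins had medians of -0.16 in mock and -0.18 in T-N2G, with 9 and 19 called lower (59 and 66 with the block). The 75 tested subunits of the respiratory chain and ATP synthase had medians of -0.11 and -0.14, with 10 and 11 called lower (27 and 33 with the block). Both groups share the background of lower calls named above (6.18% and 7.55%, or 21.9% and 22.2% when blocked). Medians of members with and without a promoter motif differed in both directions, with no test, in mock and T-N2G in turn. The 39 with an ETS match had medians of -0.16 and -0.15 and the members with an entry but no match -0.12 and -0.15. The 13 with the antioxidant response core had medians of -0.20 and -0.15, against -0.12 and -0.15 without it, and the 13 with the NRF1 motif -0.12 and -0.16, against -0.15 and -0.15. The 5 with a TATA box stood lower, at -0.24 and -0.33, against -0.13 and -0.14 without one. The 34 with a GC box stood higher, at -0.09 and -0.11, against -0.19 and -0.16, as did the 12 with the YY1 motif, at -0.11 and -0.08, against -0.15 and -0.16.

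Medians by transcript length and the fibroblast markers also differed under DEM. Length was inferred as a gene's fragments over its FPKM, each summed over the libraries, and annotated lengths were not used. Among the 3118 tested genes shortest by this measure, all genes had medians of -0.04 in mock and -0.05 in T-N2G cells. The 62 of the 77 members among them had medians of -0.14 and -0.15. Of the 9 tested fibroblast markers 2 were called lower under DEM in T-N2G cells (Col1a1 and Fbn1), and with the block 8 were called lower and 1 higher (Thy1, log2 fold change 0.12, with the block adjusted p = 0.00919), with summed FPKM of 3309 to 3841 against 3954 to 4638 with vehicle. In mock cells none was called without the block, and with it 6 were called lower and 1 higher (Thy1, 0.13, adjusted p = 0.00672), at 3921 to 4419 against 4140 to 4597 FPKM. Of all tested genes, 7.55% were called lower in T-N2G and 6.18% in mock cells. With the block 22.2% were called lower and 22.8% higher in T-N2G cells, and 21.9% and 20.9% in mock. The part of transcript length or of the markers in the members' result was not tested.

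Of 7 mitoribosome genes listed apart, which carry other names or have had them (Mrpl57, a member, is one), 2 were called lower in each DEM comparison and none higher without the block. With it 4 and 3 were called lower and 1 higher in mock. For this and the following lists, the background under DEM was 6.18% lower and 7.76% higher in mock cells. It was 7.55% lower and 10.1% higher in T-N2G cells. With the block it was 21.9% and 20.9% in mock and 22.2% and 22.8% in T-N2G cells. Ptcd3, a small-subunit protein, had 84.1 ± 8.50 CPM with vehicle against 65.1 ± 4.56 CPM with DEM in mock cells, and 86.7 ± 8.24 against 68.9 ± 5.27 CPM in T-N2G cells (-0.37, adjusted p = 0.0256, and -0.33, adjusted p = 0.0320). Ict1, a peptidyl-tRNA hydrolase built into the large subunit, was called lower in mock (-0.30, adjusted p = 0.0485), and Aurkaip1, of the small subunit, in T-N2G cells (-0.29, adjusted p = 0.0266).

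Among 11 mitochondrial translation factors, 2 were called lower and 1 higher in mock and 3 lower and 1 higher in T-N2G cells; with the block 5 were called lower in mock. Oxa1l, which inserts new proteins into the inner membrane, fell in both (-0.36, adjusted p = 0.00248, and -0.38, adjusted p = 0.00119), as did the elongation factor Tufm (-0.28, adjusted p = 0.0352, and -0.30, adjusted p = 0.0200). Tsfm was called lower in T-N2G cells (-0.54, adjusted p = 0.0111) and not in mock without the block (-0.27, adjusted p = 0.164). Mrrf, the ribosome recycling factor, rose in both, from 21.6 ± 0.702 to 31.5 ± 1.62 CPM in mock cells (0.55, adjusted p = 0.00286, and 0.52, adjusted p = 0.00261).

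The 23 genes of mitoribosome assembly and rRNA modification split, with 6 called lower and 4 higher in mock and 4 lower and 2 higher in T-N2G cells (with the block 9 lower and 6 higher, and 8 lower and 5 higher). The RNA helicase Ddx28 fell (-0.47, adjusted p = 0.00532, and -0.32, adjusted p = 0.0218), as did Mettl17 (-0.54, adjusted p = 0.0180, and -0.50, adjusted p = 0.0197) and Ngrn (-0.35, adjusted p = 0.0438, and -0.48, adjusted p = 0.00804). The rRNA methyltransferase Tfb1m rose in both (0.37, adjusted p = 0.0346, and 0.45, adjusted p = 0.0134), and Mrm1, another one, in mock (0.51, adjusted p = 0.0166). Mtg1 rose in both as well (0.35, adjusted p = 0.0328, and 0.32, adjusted p = 0.0408).

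Of 17 mitochondrial tRNA synthetases, 1 was called lower and 2 higher in mock and 2 lower and 3 higher in T-N2G cells (with the block 4 lower and 3 higher, and 5 lower and 6 higher). Background shares were 6.18% lower and 7.76% higher in mock and 7.55% and 10.1% in T-N2G cells. With the block they were 21.9% and 20.9%, and 22.2% and 22.8%. Ears2 (0.40, adjusted p = 0.0195, and 0.37, adjusted p = 0.0213) and Cars2 (0.36, adjusted p = 0.0306, and 0.41, adjusted p = 0.0137) rose in both populations, and Sars2 fell (-0.33, adjusted p = 0.0384, and -0.37, adjusted p = 0.0200).

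Of 10 genes for transcription and upkeep of mitochondrial DNA and its RNA, Polg, the DNA polymerase, rose in both (0.30, adjusted p = 0.0130, and 0.23, adjusted p = 0.0345), and 2 were called lower in T-N2G cells, the elongation factor Tefm (-0.46, adjusted p = 0.0270) and Tfam (-0.22, adjusted p = 0.0427). With the block 3 were called lower in each population, and 1 in mock and 2 in T-N2G cells higher. Of 7 tested regulators of mitochondrial biogenesis, none was called lower, and 3 were called higher in mock and 2 in T-N2G; with the block 4 were called higher in each and 1 lower in T-N2G cells. Gabpa, which binds the ETS motif, rose in both (0.36, adjusted p = 0.00281, and 0.41, adjusted p = 0.000864), from 132.4 ± 1.31 to 169.9 ± 2.41 CPM in mock cells. None of 10 mitochondrial chaperones and proteases was called in either DEM comparison by edgeR without the block. There 1 of them had an unadjusted p under 0.05 in each, against 3740 of the 12469 tested genes in mock and 3968 in T-N2G cells. With the block 1 was called higher and 1 lower in each. In the comparisons of T-N2G with mock cells, edgeR called none of the 84 tested genes of these 7 lists, members left out, without the block. The unadjusted p was under 0.05 for 3 of them with vehicle and 5 under DEM, against 800 and 1861 of the 12469 tested genes. None was called with vehicle with the block (background 6.30%), and 4 were called higher and 6 lower under DEM (background 10.3% and 9.32%). Without the block the background was 0.313% with vehicle and 3.71% under DEM.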

How the data were processed

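Poly(A) RNA of 12 libraries was measured (RNeasy Mini extraction and a strand-specific SureSelect kit, per the labels' protocols). The submitters' processing notes name bcl2fastq 2.16.0.10, TopHat2 2.0.8b, Cuffdiff 2.1.1 and build mm9; their roles, the gene annotation and the strand setting are not given in the sources used here. The authors deposited, per gene and library, an estimated count of fragments, not scaled between libraries, and FPKM, scaled by transcript length and library size; 2 further value columns per library were not used. Of the values 98.3% were whole (tolerance 0).

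Counts were rounded and fitted in R 4.3.3 with edgeR 4.0.16 (filterByExpr, TMM, quasi-likelihood, a coefficient per group over all 12 libraries), and adjusted by Benjamini-Hochberg over 12469 genes; a call is an adjusted p under 0.05. CPM used TMM-scaled library sizes. The fit was also run on simulated counts. These had no deviation shared by replicate number and less spread between libraries than the fit without the block found. That run therefore does not show how the fit behaves on these data. Alternatives used DESeq2 1.42.0, limma 3.58.1 on log2(FPKM + 1) and log2(FPKM + 0.1), RLE scaling, no filter, fewer libraries and the replicate number as a block.

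Titles number the replicates without saying what a number means. Deviations from group means correlated at r 0.361 to 0.631 in 18 same-numbered pairs and at -0.422 to -0.00363 in 36 others, so the numbers pair the libraries, and blocked values stand beside results they change.

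Members and gene lists were chosen with earlier results of these data known. Named are, per comparison, the 4 called members of smallest p in each direction with and without the block and the 2 widest changes in each direction. The 4 highest and 4 lowest levels are named too. Per list up to 2 called genes are named in each direction, though not every gene of smallest p is. Further names of members are marked. RefSeq promoters and GENCODE gene neighbours, both of another build than the counts, served for sequences and names only.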

Additional observations from a re-analysis of the deposited data

How the results depend on the processing

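For the genes named, no log2 fold change called in the reported fit or under an alternative had opposite signs in that pair of fits. The median of the members stayed below 0 in both DEM comparisons under all of them. The medians near 0 did change sign: that of T-N2G over mock was 0.0161 with vehicle without T-N2G vehicle replicate 2 and 0.00446 under DEM without T-N2G DEM replicate 2, and that of the difference of the DEM effects fell on either side of 0. No member was called in T-N2G over mock with vehicle, or in the difference of the DEM effects, under any of them. With the replicate block, members called were 2 higher and 3 lower in T-N2G over mock under DEM (0 and 0 without it), 2 higher and 37 lower for DEM in mock (1 and 9), and 4 higher and 38 lower for DEM in T-N2G cells (1 and 11). On replicates 1 and 2 alone, 0 higher and 0 lower were called for DEM in mock and 1 lower in T-N2G cells; on those libraries with the replicate block the counts were 30 lower in mock, 1 lower in T-N2G over mock under DEM, and for DEM in T-N2G cells 3 higher and 29 lower. Fits on only the 6 libraries compared called 0 higher and 4 lower for DEM in mock and 6 lower in T-N2G cells. Without a filter on low counts, which raises the number of tests, 4 were called lower in mock. Scaling by RLE, DESeq2 and limma on FPKM moved no count by over 1.5 times.

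Leaving out 1 library at a time gave 0 to 1 higher and 1 to 10 lower for DEM in mock and 0 to 1 higher and 6 to 13 lower in T-N2G cells. The median log2 fold change of the 77 lay between -0.212 and -0.114 in mock and between -0.205 and -0.117 in T-N2G cells, and between -0.101 and 0.0161 (vehicle) and -0.0601 and 0.00446 (DEM) for T-N2G over mock. For the difference of the DEM effects it lay between -0.0524 and 0.0463. Such fits with the replicate block, added after seeing the data, gave for DEM in mock 1 to 2 higher and 32 to 39 lower (32, 33, 35, 36, 37, 38 or 39), for DEM in T-N2G 2 to 4 higher and 29 to 39 lower (29, 32, 33, 38 or 39), and 0 to 3 higher and 1 to 4 lower in T-N2G over mock under DEM, where the median lay between -0.0468 and -0.0136. Differences in log2 fold change under about 0.2 were mostly within the 95% interval of 1 gene without the block.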

Other observations

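Many mitochondrial ribosomal protein genes start back to back with another gene. In the GENCODE annotation, 33 of the 77 have a protein-coding gene on the other strand whose start lies within 1000 bases, and 30 of these partner genes were tested. The 30 partners had median log2 fold changes under DEM of -0.01 in mock and 0.02 in T-N2G cells. Of them 16 and 14 lay below 0, against 52.2% and 50.8% of all tested genes. In mock cells 3 partners were called lower and 3 higher, and in T-N2G cells 4 lower and 4 higher (7 and 7 with the replicate block in each). Among all tested genes 6.18% were called lower and 7.76% higher in mock, and 7.55% and 10.1% in T-N2G cells. With the block these shares were 21.9% and 20.9% in mock and 22.2% and 22.8% in T-N2G cells. The members facing them had medians of -0.13 and -0.12. As a description, with no test, member and partner log2 fold changes had r of 0.442 in mock and 0.565 in T-N2G cells over 30 pairs, which share libraries and, for some, exons on opposite strands. Mrpl46 and Mrps11 are each other's partner. Both therefore count among the 30 partners, and their pair enters r with each gene in either place.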
